A study of Mus musculus with 18 samples.

Results

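The genes described here carry the symbol Zfp followed by a 3-digit number, a mouse nomenclature for zinc finger proteins. In the GENCODE M21 annotation, 13 of them carry another symbol and 12 have no entry. The rule reads only the symbol: 271 of the 14419 genes in the table matched, under 267 distinct symbols, since Zfp131, Zfp319, Zfp708 and Zfp783 each stood on 2 rows. The 2 Zfp131 rows had the same mean level, and 1 of the Zfp708 rows is now named Rslcan18. Each row was counted as a gene. A further 68 genes whose symbol starts with Zfp but has fewer digits or extra letters were kept apart for comparison. RNA was sequenced from 3 blood-forming populations of marrow, isolated by sorting from adult male mice of the C57BL/6 strain given tamoxifen, a ligand of estrogen receptors, or its corn oil vehicle. The populations were LT-HSCs (long-term haematopoietic stem cells, LT below), ST-HSCs (short-term stem cells, ST below) and MPPs (multipotent progenitors). Treatment lasted 1 week for MPPs but 2 weeks for the other populations, so population and duration cannot be told apart wherever MPPs are set against the others. Each of the 6 groups (MPP oil, MPP tamoxifen, LT oil, LT tamoxifen, ST oil, ST tamoxifen) held 3 libraries, numbered 1 to 3 for MPPs and lettered A to C for LT and ST cells. No transgene or deleted allele is named for any group, and the sources used here give no gates for the sort.

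Most of these genes encode proteins of the C2H2 type, in which 2 cysteines and 2 histidines hold a zinc ion and fold a short loop into a finger that touches DNA. Fingers stand in arrays joined by a conserved linker, and the order of the fingers sets which DNA sequence is bound. Many arrays carry a KRAB box at the amino end, which recruits Trim28 (KAP1) and through it the histone methyltransferase Setdb1, HP1 proteins and DNA methylation, and so silences retroelements, imprinted regions and other genes. SCAN boxes are an alternative end domain through which such proteins pair. Others act without KRAB, as promoter-binding activators, subunits of chromatin complexes, or RNA-binding and ribosome-associated proteins.

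Coding sequences from GENCODE M21 were found for 256 members. The number of fingers in the translated sequence ranged from 0 to 36, with a median of 10. A KRAB A box-like pattern followed by at least 2 fingers was present in 107 members, a SCAN box without KRAB in 10, and fingers with neither in 123, while 16 had under 2 fingers. The remaining 15 members had no coding transcript matched. The pattern needs a tryptophan and misses diverged boxes, so 107 is a lower count of KRAB members. Members whose box was missed were counted in the other classes, so the 123 can include KRAB or SCAN proteins. Zfp167, now named Zkscan7, is among the 123. In all of GENCODE M21, 677 of 21866 coding genes (3.1%) had 2 or more fingers and 274 (1.25%) had the pattern with fingers. Of the 256 members, 105 had another member as their next coding neighbour, in 38 runs. The longest runs held 7 genes each, one on chromosome 7 (Zfp180, Zfp112, Zfp235, Zfp114, Zfp111, Zfp109, Zfp108) and one on chromosome 6 (Zfp786, Zfp398, Zfp282, Zfp212, Zfp956, Zfp777, Zfp746).

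To show the form of a finger, 1 finger with its linker is printed for 6 of the members that differed between tamoxifen and oil in ST cells, described further on. Each stretch is coding sequence from GENCODE M21 (GRCm38), read 5′ to 3′ on the gene's strand, and capitals mark the codons of the 2 cysteines and 2 histidines.
Zfp157 (chr5:138456094-138456177, plus strand, exon 5 of 5): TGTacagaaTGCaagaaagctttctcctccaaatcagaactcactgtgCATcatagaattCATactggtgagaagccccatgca
Zfp113 (chr5:138145297-138145380, minus strand, exon 4 of 4): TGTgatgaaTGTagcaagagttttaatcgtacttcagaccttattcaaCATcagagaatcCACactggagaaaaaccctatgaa
Zfp867 (chr11:59464052-59464135, minus strand, exon 4 of 4): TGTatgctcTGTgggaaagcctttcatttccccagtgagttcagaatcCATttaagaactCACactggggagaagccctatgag
Zfp664 (chr5:124885808-124885891, plus strand, exon 4 of 4): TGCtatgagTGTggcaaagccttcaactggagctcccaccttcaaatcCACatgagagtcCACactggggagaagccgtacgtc
Zfp777 (chr6:48025130-48025213, minus strand, exon 6 of 6): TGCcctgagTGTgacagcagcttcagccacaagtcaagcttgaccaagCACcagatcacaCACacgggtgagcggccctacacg
Zfp831 (chr2:174643966-174644049, plus strand, exon 1 of 5): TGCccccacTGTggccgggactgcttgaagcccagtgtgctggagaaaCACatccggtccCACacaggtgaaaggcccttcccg
The search pattern fixed the spacing of the metal-binding codons and a linker right after the last histidine. All 6 therefore share both by construction, and the other members that differed are not printed. Zfp157 and Zfp113 were identical at 52 of the 84 bases (61.9%), the highest of any pair, and Zfp157 and Zfp831 at 31 (36.9%), the lowest. Only longer runs of identical bases can let a read fit more than 1 gene. Over whole transcripts, 149 of the 256 members had no run of 50 bases in common with a transcript of another gene, 22 shared over 10% of such runs and 4 over 50%. Among the genes named in the text, Zfp932 (55.5%), Zfp488 (13.5%), Zfp708 (11.9% for 1 of its rows) and Zfp108 (11.5%) were past 10%, and their values are the less certain for it. Zfp353, which has no entry in GENCODE M21, could not be checked in this way.

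A minority of the promoters held a sequence that the choice by symbol did not use. Zfp143, itself a member, is an activator that binds promoters through a known recognition site. The core letters searched for were ACTACANNTCC, in which N is any base, on both strands of the 300-base RefSeq windows (GRCm38.p6) from 250 bases before to 50 bases after each transcription start. A promoter was found for 216 of the 267 symbols. The motif stood in 36 of their 269 promoters (13.4%), against 1.98% of all 32851 promoters and 3.77% of the promoters of other genes in the table. It was found in 15.3% of the promoters of members with the KRAB pattern and 12.1% of those of members with fingers and neither pattern. It was also found in 13.7% of the promoters of 54 further genes in the table that had the KRAB pattern and fingers but are no members. Of the 36 members with a match, 14 lie on chromosome 7 and 12 on chromosome 13.

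Windows of 35 bases are printed for the members with a match that differed between populations in oil (Zfp111, Zfp566, Zfp692, Zfp940) and for neighbours in the chromosome 7 run (Zfp180, Zfp112, Zfp109, Zfp108). Each reads 5′ to 3′ on the strand that carries the match, and capitals mark the 11 matched bases.
Zfp111 (chr7:24208190-24208224, plus strand): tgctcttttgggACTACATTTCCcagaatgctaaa
Zfp180 (chr7:24081863-24081897, minus strand): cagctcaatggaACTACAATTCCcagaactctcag
Zfp112 (chr7:24112160-24112194, minus strand): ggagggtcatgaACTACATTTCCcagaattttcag
Zfp109 (chr7:24237700-24237734, plus strand): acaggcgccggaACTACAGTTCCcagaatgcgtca
Zfp108 (chr7:24254715-24254749, minus strand): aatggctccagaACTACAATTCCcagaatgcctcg
Zfp566 (chr7:30090564-30090598, minus strand): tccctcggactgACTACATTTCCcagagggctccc
Zfp940 (chr7:29853662-29853696, plus strand): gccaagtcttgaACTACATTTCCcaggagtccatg
Zfp692 (chr11:58307009-58307043, plus strand): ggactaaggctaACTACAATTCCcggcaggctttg
The likeness ran past the 11 searched letters: all 40 windows from the members had a C right after the match, and 38 of the 40 went on with CA. The letters after the match were not counted for other genes, so this is not shown to be particular to the members. The centre of the matches lay at a median of 50 bases before the start in members and 77 bases before it in other genes, and 31 of the 40 (77.5%) lay between 100 bases before and 50 after it, against 63% in other genes. A match is a description of the letters and not evidence of binding.

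**Figure D1:**
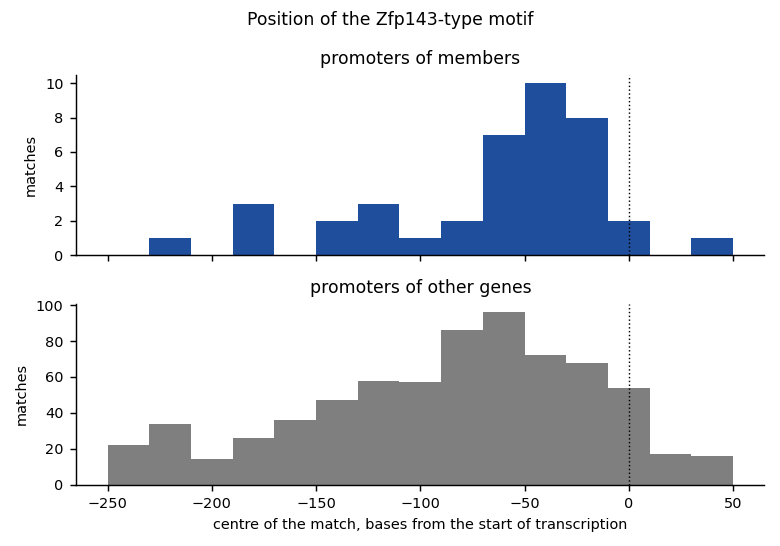
Position of the 11-base Zfp143-type motif in RefSeq promoter windows, as the centre of each match in bases from the start of transcription (x axis) against the number of matches per 20-base bin (y axis), for members (40 matches) and all other genes (703 matches). The members' matches lie at a median of 50 bases before the start.

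The palindromic estrogen response element (GGTCANNNTGACC, both strands) was looked for because tamoxifen binds estrogen receptors. It was found in 0 of the members' 269 promoters, against 0.07% of all promoters and 0.00838% of those of genes in the table. The element is so rare that 0 matches in 269 promoters cannot set the members apart. Its half-site GGTCA, on either strand, stood in 38.7% of the members' promoters, 40.5% of all and 38.5% of those of genes in the table. Zfp143 itself measured 22.3, 16.5 and 19.1 normalised CPM (read counts scaled per library) in MPP oil and 18.6, 26 and 21.8 in MPP tamoxifen. It measured 24.1, 26 and 21 in LT oil, 21, 23.5 and 26.3 in LT tamoxifen, 20.6, 18.1 and 19.8 in ST oil, and 20.9, 31 and 28.4 in ST tamoxifen. The ST tamoxifen libraries were all above the ST oil libraries, but the difference did not pass the test described below (0.42 ± 0.20 (SE) on the log2 scale, adjusted p = 0.19). Of the 37 rows whose promoters held the motif, none passed the threshold between tamoxifen and oil in any population, where 0.0555% of all genes did in MPPs, 0.416% in LT cells and 9.61% in ST cells. Of the 183 rows without a match, 3 were called higher and 6 lower in ST cells. In ST cells 23 of the 37 were below 0 (median -0.0645), as were 115 of the 183 (median -0.125).

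Over the 18 libraries, 2728800 to 5279821 reads fell in the listed genes, and 25727 to 48722 of them in the members. The mean level of a member over all libraries had a median of 17.1 normalised CPM, against 20.3 for all genes, and its highest was 423.6. A median member rested on 63.2 reads per library and the lowest on 2.94, and 1 to 8 members per library had under 3 reads. All members had at least 1 normalised CPM in 6 or more libraries, as every gene in the table did, so no further filter removed any. The LT tamoxifen library A stood apart: across genes its counts differed from those of libraries B and C by 26.1 to 27.1 times sampling noise (chi-square per degree of freedom), whereas B and C differed by 3.28 times. Mitochondrial ribosomal RNA took 25.5% of the reads in that library and 24.4% in ST tamoxifen library A, against 17.7% to 22.2% elsewhere. Long-term stem cell markers (10 genes) summed to 2148 to 2313 normalised CPM in LT oil, 1776 to 2040 in LT tamoxifen and 798.5 to 1097 in ST oil. Progenitor markers (6 genes) were lower after tamoxifen without overlap in each population: 2656 to 2854 against 2071 to 2407 in MPPs, 1342 to 1605 against 830.2 to 1039 in LT cells, and 1193 to 1556 against 958.1 to 1164 in ST cells. Macrophage and monocyte markers (7 of 8 genes in the table) were higher after tamoxifen in MPPs (82 to 87.2 against 107.5 to 150.2) and ST cells (89 to 93.9 against 127.1 to 138.4) and overlapped in LT cells. Erythroblast markers (8 genes) were higher after tamoxifen without overlap in LT cells (104.4 to 131.9 against 135.3 to 183.8) and ST cells (38.5 to 40.4 against 41.1 to 74.9). They overlapped in MPPs, where 1 tamoxifen library reached 330.1. Among markers of other cells, 4 of 7 B cell, 3 of 8 T and NK cell, and 3 of 8 stromal and endothelial genes were in the table. Mature neutrophil markers summed to 19.3 to 610.9 normalised CPM over all libraries. B cell sums (14.8 to 28.27 against 9.517 to 13.98) and stromal and endothelial sums (64.2 to 77.85 against 44.35 to 48.93) were lower after tamoxifen in LT cells only. Cell-division markers (8 genes) had sums from 1547 to 1945 in the ST oil libraries but from 2936 to 3169 after tamoxifen; for LT cells the sums ran from 1028 to 1353 and from 1547 to 3237.

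The members' share of all reads in listed genes was lower after tamoxifen. It was 1.03%, 0.991% and 1% in MPP oil and 0.923%, 0.963% and 0.943% in MPP tamoxifen. In LT cells it was 1.02%, 1.01% and 1.05% in oil and 0.937%, 0.989% and 0.932% in tamoxifen. In ST cells it was 1.01%, 0.861% and 0.941% in oil and 0.746%, 0.831% and 0.829% in tamoxifen. Oil and tamoxifen libraries did not overlap in any of the populations on this measure. On the normalised CPM scale used for the tests, the members' sums did not overlap in MPPs (10406 to 10648 against 9610 to 9920), but they did in ST cells (8570 to 9154 against 7932 to 8619) and in LT cells (9420 to 9901 against 9015 to 10784, the highest being library A). Outside the mitochondrial ribosomal RNAs the share still did not overlap in MPPs (1.26% to 1.3% against 1.16% to 1.2%) and ST cells (1.1% to 1.24% against 0.987% to 1.06%), but it did in LT cells (1.24% to 1.29% against 1.15% to 1.26%, the highest being library A). In bulk libraries, fewer cells of one kind and less RNA per cell cannot be told apart. Like the share, the progenitor markers were lower after tamoxifen in all populations. The long-term, B cell, and stromal and endothelial markers were lower in LT cells. In the opposite direction, the macrophage markers were higher in MPPs and ST cells. The erythroblast and cell-division markers were higher in ST and LT cells. The part of these markers in the share was not tested.

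**Figure D2:**
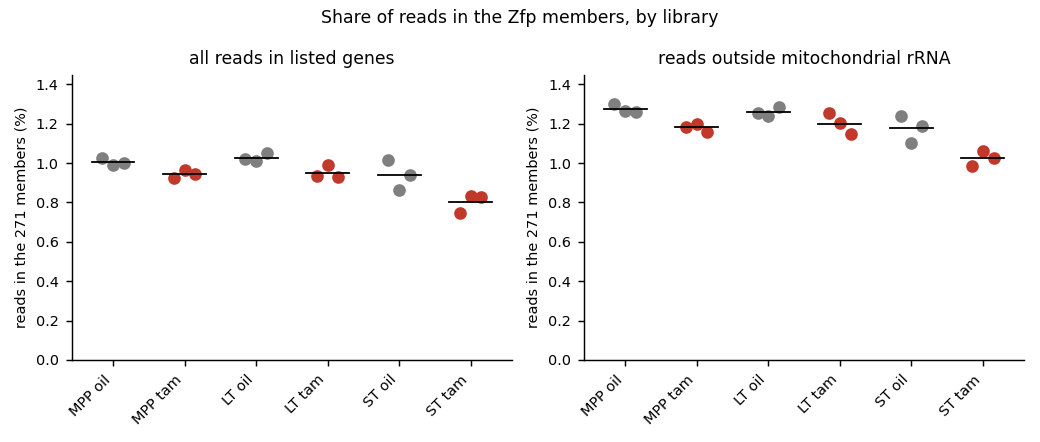
Share of reads in the 271 members (y axis, %), for each library (points) with the group mean (line), in the 6 groups; left, of all reads in listed genes, and right, of reads outside the mitochondrial ribosomal RNAs. On the left the tamoxifen libraries lie below the oil libraries in each population.

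Each gene was then compared between tamoxifen and oil with limma on log2(normalised CPM + 1), with p-values adjusted over all 14419 genes and called at 0.05 (a difference of 1 on the log2 scale is 2-fold, slightly understated for low genes). In MPPs 0 members passed, where 0.0555% of all genes did, and 13 (4.8%, against 5.68% of all genes) had an unadjusted p under 0.05 (edgeR's quasi-likelihood test and DESeq2 also called 0). In LT cells 0 passed, where 0.416% of all genes did, and 23 (8.49%, against 13.5% of all genes) had an unadjusted p under 0.05. In LT cells edgeR called 0, and DESeq2, which gave an adjusted p for 80 members, called 2 (Zfp106 and Zfp532), with 336 of 5194 genes called. In ST cells 14 of 271 passed, or 5.17%, where 9.61% of all genes did. Of these 4 rose (1.48% of members, against 6.01% of all genes) and 10 fell (3.69%, against 3.6%).

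The differences lay below 0 for most members, although few passed singly. In MPPs 185 of the 271 members were lower after tamoxifen and 86 higher, with a median difference of -0.10 on the log2 scale, where 7208 of the 14419 genes were higher and the median was -0.0001. In ST cells 164 were lower and 107 higher (median -0.10, against 0.01 for all genes). In LT cells 154 were lower and 117 higher (median -0.05, against -0.02). In MPPs the oil and tamoxifen libraries did not overlap for 30 members that were lower (11.1%, against 7.23% of all genes). The same held for 8 that were higher (2.95%, against 7.66%). In LT cells the counts were 28 lower (10.3%, against 9.36%) and 19 higher (7.01%, against 9.04%). In ST cells 33 were lower (12.2%, the same share as for all genes) and 13 higher (4.8%, against 14.8%). The gap between the members' median and that of all genes stayed below 0 in all settings tried: -0.119 to -0.081 in MPPs, -0.073 to -0.026 in LT cells and -0.163 to -0.061 in ST cells.

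**Figure D3:**
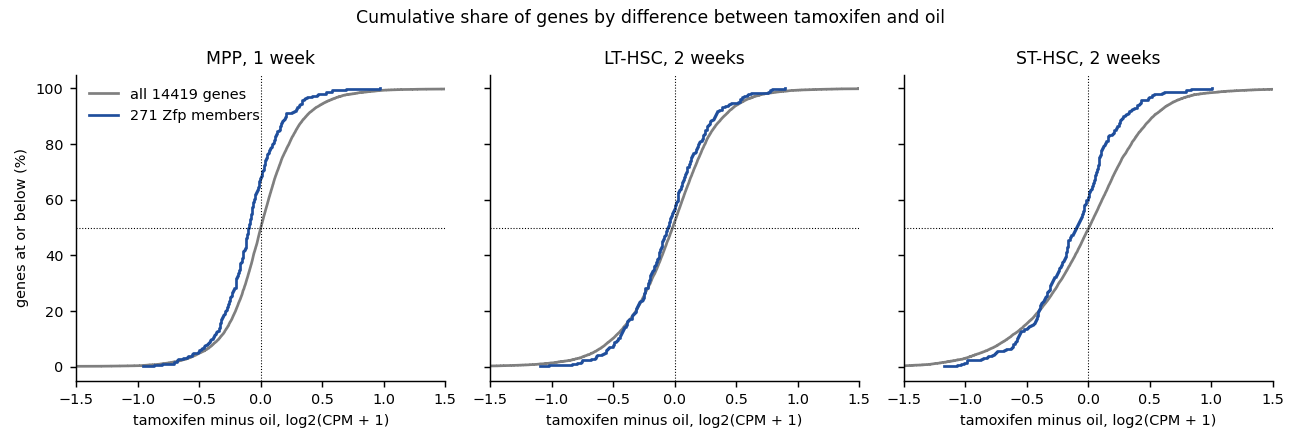
Cumulative share of genes (y axis, %) at or below a given difference between tamoxifen and oil (x axis, log2(CPM + 1)) for the 271 members and all 14419 genes, in MPPs, LT-HSCs and ST-HSCs. The members' curve crosses 50% at -0.10 in MPPs and ST cells and at -0.05 in LT cells.

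The members were also counted by protein class, without a test of the difference between classes. In MPPs 82 of the 107 KRAB members were lower after tamoxifen (median -0.14), as were 84 of the 123 with fingers and neither pattern (median -0.09). In ST cells 73 of the 107 KRAB members were lower (median -0.16), with 1 called higher and 4 called lower. Of the 123 with fingers and neither pattern, 68 were lower there (median -0.04), with 3 called higher and 4 lower. In LT cells 54 of the 107 KRAB members were lower (median -0.02), against 80 of the 123 (median -0.10). The 98 other genes of the table with the KRAB pattern and fingers, which are no members, had medians of -0.13 in MPPs, 0.02 in LT cells and -0.14 in ST cells. Of these, the 29 with another Zfp symbol had a median of 0.0026 in ST cells (15 above 0 and 14 below). The 68 other Zfp genes as a whole had medians of -0.05 in MPPs, -0.03 in LT cells and 0.01 in ST cells, where 35 were above 0 and 33 below, and 2 were called, both lower. The 16 members with under 2 fingers had medians of 0.01 in MPPs, 0.12 in LT cells and 0.11 in ST cells. The 10 SCAN members without KRAB had a median of -0.22 in ST cells and 0.04 in MPPs.

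Of the 10 members that fell in ST cells, 4 had the KRAB pattern (Zfp867, Zfp157, Zfp459 and Zfp113), and Zfp353 had no coding transcript matched. Zfp867, a KRAB member with 10 fingers, measured 13, 18.1 and 13.9 normalised CPM in ST oil and 3.32, 7.57 and 8.35 in ST tamoxifen. It fell by 1.17 ± 0.30 (SE) on the log2 scale (adjusted p = 0.013), on 39 to 54 reads per oil library and 12 to 32 per tamoxifen library. Zfp157, a KRAB member with 11 fingers that has been studied in mammary gland development, measured 72.2, 63.1 and 58.5 in ST oil and 23.2, 37.6 and 33.8 in ST tamoxifen. Neither gene's oil and tamoxifen libraries overlapped, and Zfp157 fell by 1.03 ± 0.18 (adjusted p = 0.000829). Zfp353 measured 59.7, 46.9 and 38.5 in ST oil and 23, 29.6 and 18.1 in ST tamoxifen, and fell by 1.01 ± 0.24 (adjusted p = 0.00794). Zfp459, a KRAB member with 3 fingers, measured 7.41, 7.46 and 8.94 against 3.59, 2.43 and 4.75, and fell by 0.99 ± 0.31 (adjusted p = 0.0384), on 8 to 30 reads per library. Zfp113, a KRAB member with 8 fingers, measured 56.8, 47.2 and 55 against 27, 37.9 and 42.8 (fell by 0.57 ± 0.16, adjusted p = 0.0236). In all 5 genes the highest tamoxifen library lay below the lowest oil library.

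The other 5 that fell had fingers and no KRAB pattern. Zfp488, a nuclear partner of Olig2 known from the differentiation of oligodendrocytes, measured 262, 218 and 163 normalised CPM in ST oil and 119, 108 and 91.8 in ST tamoxifen, and fell by 0.99 ± 0.18 (adjusted p = 0.00165). Zfp521, a co-repressor of immature blood cells that binds Ebf1 and the NuRD complex, measured 87.7, 58.2 and 68.2 against 57, 40.1 and 26.8. Its lowest oil library and highest tamoxifen library lay close together, and it fell by 0.82 ± 0.22 (adjusted p = 0.0203). Zfp277, which helps Polycomb proteins to hold the Cdkn2a locus silent, measured 117, 96.6 and 91 against 76.6, 61.3 and 57.9 (fell by 0.63 ± 0.16, adjusted p = 0.0126). Zfp831 measured 65.3, 62.8 and 69.3 against 56.5, 42.7 and 32 (fell by 0.62 ± 0.17, adjusted p = 0.0227). Zfp704, a relative of Zfp395 with a single finger, was the most abundant of the 5, at 288, 229 and 239 in ST oil against 205, 164 and 141 (fell by 0.58 ± 0.13, adjusted p = 0.00727).

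The 4 members that rose were Zfp106, Zfp828, Zfp664 and Zfp777. Zfp106, a nuclear RNA-binding protein whose loss causes neuromuscular degeneration in mice, measured 248, 253 and 278 normalised CPM in ST oil and 400, 384 and 396 in ST tamoxifen, and rose by 0.60 ± 0.11 (adjusted p = 0.00178). Zfp828, also named Champ1, which serves the attachment of chromosomes to the mitotic spindle, measured 24.2, 26 and 34.4 against 40.5, 38.4 and 42.2 (rose by 0.52 ± 0.17, adjusted p = 0.0477). Zfp664 measured 69.6, 71.7 and 77.2 against 110, 95.6 and 101 (rose by 0.48 ± 0.14, adjusted p = 0.0318). Zfp777, a KRAB member in the chromosome 6 run, measured 11, 12.1 and 7.18 against 24.8, 17.6 and 14.3 (rose by 0.84 ± 0.26, adjusted p = 0.037). Oil and tamoxifen libraries did not overlap for any of the 4. With values rescaled to reads outside the mitochondrial ribosomal RNAs, 1 member rose and 14 fell, and with quantile normalisation 2 rose and 12 fell. Leaving out ST oil library A left 4 members past the threshold, leaving out ST tamoxifen library C left 7, library B 8 and library A 9. Zfp106, Zfp157 and Zfp488 passed in all 17 alternatives tried. Zfp353, Zfp704 and Zfp867 passed in 15, Zfp277 in 14, Zfp113 and Zfp521 in 13, Zfp831 in 12 and Zfp777 in 11. The least stable were Zfp664, which passed in 9, Zfp459 in 8 and Zfp828 in 5, with adjusted p-values up to 0.106, 0.159 and 0.191.

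**Figure D4:**
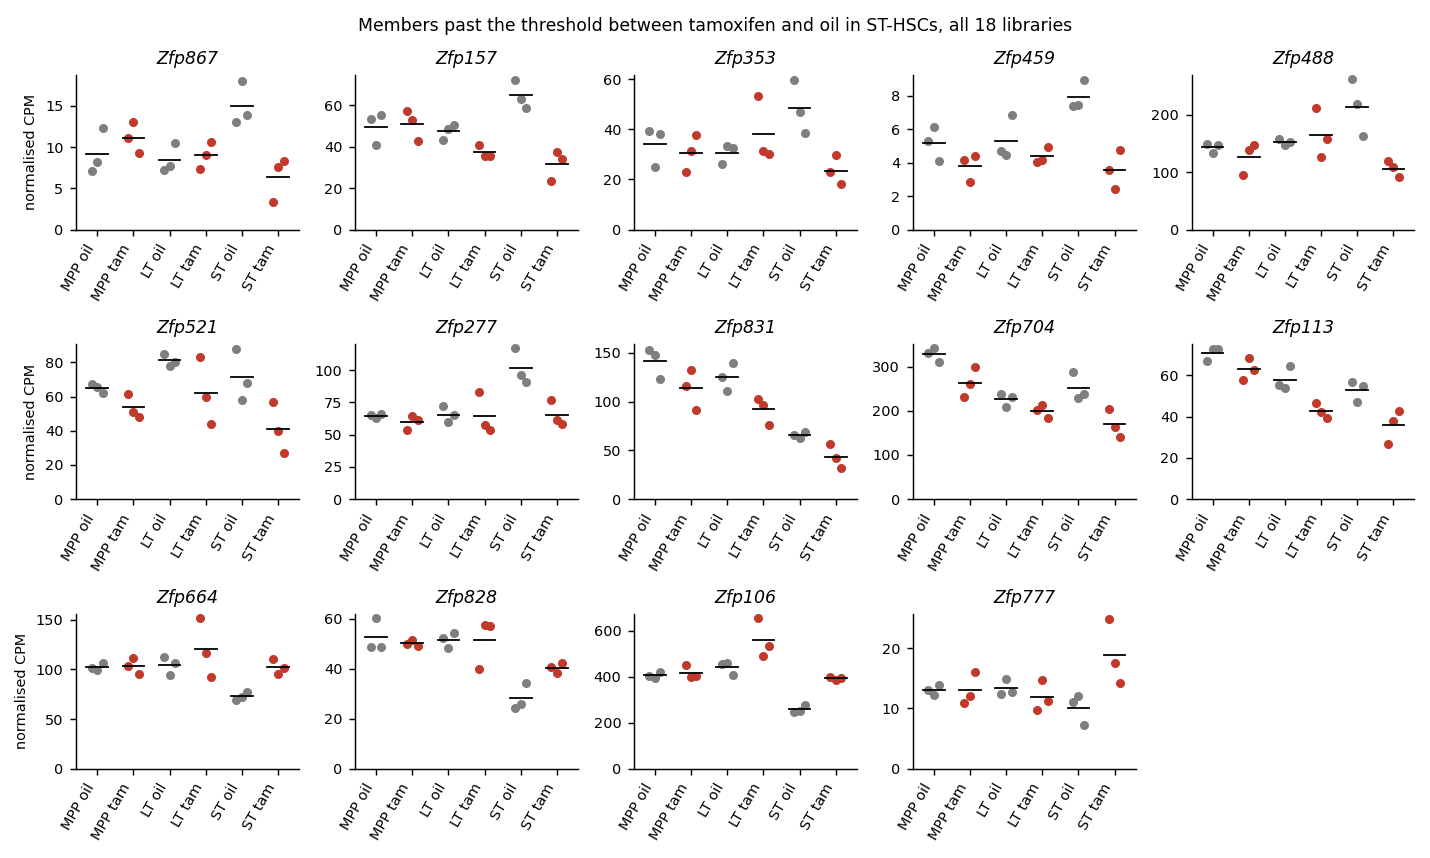
Normalised CPM (y axis, from 0) of the 14 members that differed between tamoxifen and oil in ST-HSCs, for each library (points; grey oil, red tamoxifen) with the group mean (line), in all 6 groups. In the ST groups no tamoxifen point of a member lies within the range of its oil points.

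The same 14 members in the other populations did not pass the threshold, and the difference of the effects did not pass for any member. The effect in ST cells minus that in LT cells was called for 0 members, where 0.0555% of all genes passed, and 25 members (9.23%, against 12.9% of all genes) had an unadjusted p under 0.05. For this difference edgeR called 0, and DESeq2 called 2 (Zfp488 and Zfp353) of 213 members tested, with 157 of 10225 genes called. Zfp488 was nearest: it measured 157, 147 and 153 normalised CPM in LT oil and 212, 126 and 157 in LT tamoxifen, an effect of 0.08 ± 0.18, and the difference was -1.07 (adjusted p = 0.0864). With oil and tamoxifen libraries of the same label treated as pairs (a replicate block), the difference for Zfp488 passed in limma (-1.07, adjusted p = 0.0395). The difference for Zfp353 was -1.28 (adjusted p = 0.105). The effect in ST cells minus that in MPPs was called for 0 members, where 0.00694% of all genes passed, with 21 (7.75%, against 12.1% of all genes) at an unadjusted p under 0.05. Here edgeR called 0, and DESeq2 called 1 (Zfp106) of 44 members tested, with 128 of 3237 genes called. Zfp157 was nearest there: it measured 53.4, 40.5 and 55 in MPP oil and 57, 52.7 and 42.6 in MPP tamoxifen, and the difference was -1.07 (adjusted p = 0.117). Without LT tamoxifen library A in the shared fit, the differences between ST cells and MPPs for Zfp157 (-1.07, adjusted p = 0.0275) and Zfp106 (0.56, adjusted p = 0.0284) passed, and ST cells had 18 called members.

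In LT cells and MPPs the members with the smallest p were as follows. Zfp532, of the Z3 chromatin complex with Zfp592 and Zfp687, measured 63.5, 56.4 and 69.2 normalised CPM in LT oil and 29, 44.7 and 38.3 in LT tamoxifen, without overlap (-0.76 ± 0.18, adjusted p = 0.0554). It was 41.2, 41.1 and 34.7 in MPP oil and 30.4, 34.3 and 38 in ST oil, so the LT tamoxifen values lay near the levels of the other populations. Zfp467 measured 40.7, 48.1 and 41.4 against 18.3, 29 and 27.8 in LT cells (-0.79 ± 0.21, adjusted p = 0.081), and Zfp167, now named Zkscan7, 4.06, 3.36 and 5.15 against 1.64, 0.999 and 1.65 (-1.09 ± 0.36, adjusted p = 0.15). None of the 3 overlapped between oil and tamoxifen. In MPPs, Zfp449 measured 12.3, 11.3 and 11.2 in oil and 5.99, 6.24 and 4.42 in tamoxifen (-0.96 ± 0.28, adjusted p = 0.39). Zfp592, another Z3 protein, measured 188, 191 and 170 against 128, 150 and 142 (-0.38 ± 0.13, adjusted p = 0.64). Zfp593, a factor of the large ribosomal subunit, measured 1.22, 3.01 and 2.51 against 5.58, 4.65 and 5.28 (0.97 ± 0.35, adjusted p = 0.69), on few reads in the oil libraries. These 3 also separated without overlap, and none passed over all genes.

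Members with known roles were listed in 5 groups, and few passed between tamoxifen and oil. Their counts stand beside 6.01% of all genes called higher and 3.6% called lower in ST cells, 0.416% called in LT cells and 0.0555% in MPPs, so that 0 or 1 call in a list of this size is near the background. Of 7 measured members known in blood cells, 1 (Zfp521) fell in ST cells and 0 passed in LT cells or MPPs. Zfp830, a DNA damage protein needed for stem cell maintenance, measured 29.8, 32.3 and 35.3 normalised CPM in ST oil and 31, 41.3 and 47.1 in ST tamoxifen (adjusted p = 0.49). Zfp384, a fusion partner in B cell leukaemia, and Zfp335, needed for T cell maturation, overlapped between oil and tamoxifen in ST cells. Zfp366 and Zfp423 of this list were not analysed here. Of 6 rows of members known to silence retroelements or imprinted genes (Zfp809, Zfp932, Zfp568, Zfp445 and both Zfp708 rows), 0 passed in any population. However, 1 of the Zfp708 rows is now named Rslcan18 and was listed only by its old symbol. Zfp809, which targets the primer binding site of murine leukaemia viruses, measured 25.5, 23 and 10.1 in ST oil and 15, 24.1 and 20.7 in ST tamoxifen. Zfp445, a guardian of imprints, measured 72.6, 53.8 and 56.1 against 48.5, 58.4 and 61.8, also overlapping. Summed over the 6 rows, this list lay between 131.6 and 164.6 in ST oil and between 115.8 and 170 in ST tamoxifen.

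Of 14 members known at promoters and in chromatin complexes, 0 passed between tamoxifen and oil, with 11 lower in MPPs (median -0.14) and 9 higher in ST cells (median 0.04). Zfp281, a factor of pluripotent cells, measured 34.7, 30.7 and 37.4 normalised CPM in ST oil and 44.8, 45.3 and 47.1 in ST tamoxifen, without overlap (0.41 ± 0.15, adjusted p = 0.084). Zfp608 measured 372, 364 and 353 in MPP oil and 311, 307 and 300 in MPP tamoxifen, also without overlap (-0.25 ± 0.14, adjusted p = 0.93). The summed level of this list was 1340 to 1447 in MPP oil and 1221 to 1239 in MPP tamoxifen. Of 11 members in RNA, ribosome, DNA repair or mitosis work, 2 rose in ST cells, Zfp106 and, in 5 of 17 alternatives as well, Zfp828, and 0 fell. Zfp598, the ubiquitin ligase of stalled ribosomes, measured 51.2, 48.2 and 47.6 against 41.6, 47.9 and 58.7 in ST cells, and Zfp207, a mitotic partner of Bub3, 447, 390 and 428 against 383, 487 and 500. Both overlapped. Of 3 measured members tied to estrogen receptor alpha (Zfp217, Zfp398 and Zfp703), 0 passed in any population. Zfp217, a co-repressor subunit, was below its oil range in all ST tamoxifen libraries (75.5, 71.1 and 67.9 against 60.4, 60.4 and 54.6, adjusted p = 0.19) and in all LT tamoxifen libraries (65.5, 65.8 and 79.5 against 54, 56.9 and 56.7, adjusted p = 0.28).

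Of 29 rows of KRAB silencing machinery, 9 rose in ST cells, where 6.01% of all genes did, and 0 fell, where 3.6% did. In ST cells 20 of the 29 were above 0 and 9 below (median 0.23), and 0 passed in MPPs or LT cells, where 0.0555% and 0.416% of all genes did. Trim28, the scaffold that KRAB boxes bind, averaged 198 normalised CPM in ST oil and 259 in ST tamoxifen (0.38 ± 0.12, adjusted p = 0.0436). The maintenance methyltransferase Dnmt1 went from 250 to 385 (adjusted p = 0.0012) and its partner Uhrf1 from 90.7 to 155 (adjusted p = 0.00354). The HP1 proteins Cbx5 (398 to 515) and Cbx3 (211 to 288), the NuRD subunits Chd4, Rbbp7 and Mta1, and Pphln1 of the HUSH complex rose as well. Dnmt1, Uhrf1, Rbbp7 and Pphln1 passed in all 17 alternatives and Chd4 in 16, but Cbx3 in 8, Cbx5 and Trim28 in 7 and Mta1 in 6. Setdb1, the histone methyltransferase, averaged 115 and 111 (-0.05 ± 0.13, adjusted p = 0.846). Dnmt1 and Uhrf1 are also genes of dividing cells, and the cell-division markers were higher in the same libraries, whose part in these values was not tested.

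The populations were then compared in oil. Between ST and LT cells, 38 of 271 passed (14.0%), where 28.5% of all genes did, with 8 higher in ST cells (all genes 12.5%) and 30 lower (all genes 16%). With quantile normalisation the counts were 14 and 29, and with DESeq2 on the recovered reads likewise 14 and 29. With LT and ST libraries of the same letter treated as pairs (a replicate block), they were 12 and 34. The higher count was 16 when the ST and LT oil libraries were fitted alone and 16 without LT tamoxifen library A. It was 4 without ST oil library A and 5 without LT oil library B or C. Of the 30, 24 had fingers and neither the KRAB nor the SCAN pattern, out of 123 such members, and 4 had the KRAB pattern, out of 107. The medians were -0.10 in the former and 0.12 in the latter. The 98 further KRAB genes of the table leaned like the KRAB members (median 0.14, 8 higher and 4 lower).

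**Figure D5:**
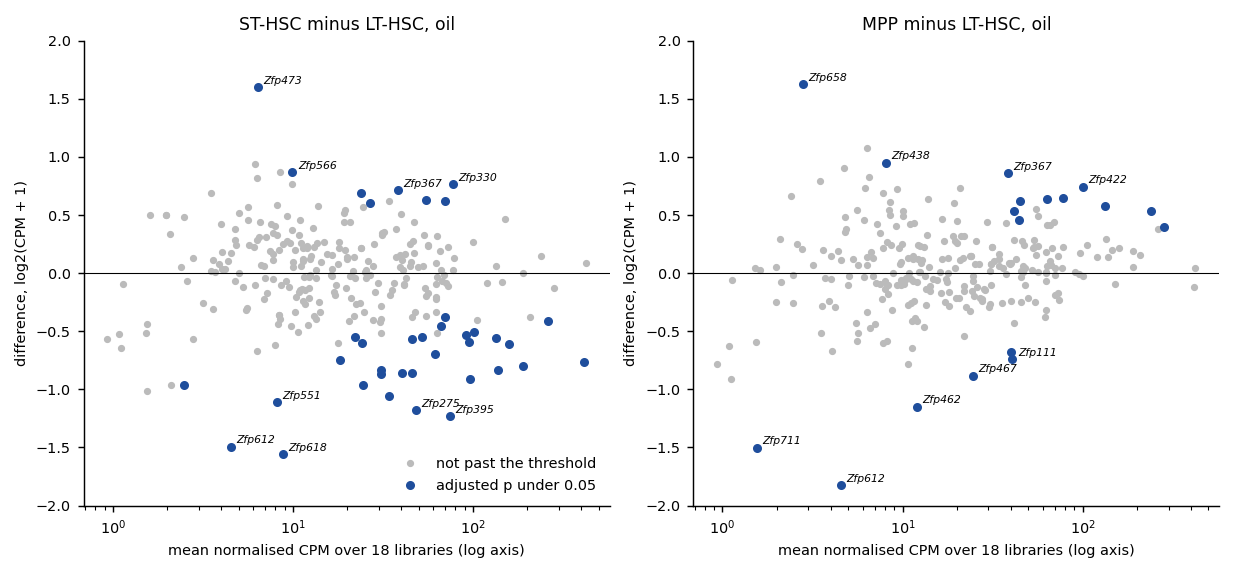
Difference between populations in oil on the log2(CPM + 1) scale (y axis) against the mean normalised CPM over 18 libraries (x axis, log scale) for the 271 members; blue points passed the threshold. Left, ST minus LT cells, with 8 members above 0 and 30 below among the called; right, MPPs minus LT cells, with 12 above and 6 below.

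The largest falls from LT to ST cells were in Zfp618, Zfp612, Zfp395, Zfp275 and Zfp551. Zfp618, a partner of Uhrf2, measured 16.6, 14.4 and 10.2 normalised CPM in LT oil and 3.13, 4.47 and 4.25 in ST oil (-1.56 ± 0.31, adjusted p = 0.000349). Zfp612 measured 10.7, 12 and 6.27 in LT oil, 2.47, 2.49 and 3.08 in ST oil and 1.76, 1.58 and 2.51 in MPP oil, so LT cells stood above both other populations. Zfp395, of the same family as Zfp704, measured 109, 111 and 92.3 in LT oil, 34.7, 42.2 and 56.4 in ST oil and 92, 100 and 74.6 in MPP oil (ST minus LT -1.23 ± 0.17, adjusted p = 5.88e-06). Zfp275 had the same shape, at 50.1, 61.8 and 65.9 in LT oil, 26.2, 28.7 and 21.8 in ST oil and 60.9, 60.6 and 60.6 in MPP oil (-1.18 ± 0.16, adjusted p = 4.84e-06). In both, ST cells were the lowest and MPPs and LT cells lay close together. Zfp551 measured 13.7, 11.7 and 14.3 in LT oil against 5.76, 3.48 and 8.35 in ST oil. Zfp362, Zfp467, Zfp647, Zfp831 and Zfp574 completed the 10 largest falls, between -1.06 and -0.87.

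Of the 8 members higher in ST than LT cells, Zfp473, a part of the U7 machinery that processes histone mRNA, had the largest difference. It measured 3.86, 4.98 and 0.975 normalised CPM in LT oil and 6.75, 19.1 and 9.23 in ST oil (1.60 ± 0.39, adjusted p = 0.0027). Zfp330, a nucleolar protein, measured 52, 62.3 and 55.3 in LT oil, 95.6, 94.6 and 99.2 in ST oil and 55, 59.7 and 59.8 in MPP oil (ST minus LT 0.76 ± 0.13, adjusted p = 9.31e-05). Zfp566 (0.87 ± 0.31, adjusted p = 0.0361) and Zfp692 (0.69 ± 0.26, adjusted p = 0.0469) carry the Zfp143-type motif printed above. The others were Zfp367, Zfp386, Zfp277 and Zfp932. In the role lists, Zfp148, a binder of GC-rich promoters, measured 175, 153 and 176 in LT oil and 110, 94.6 and 126 in ST oil (-0.61 ± 0.13, adjusted p = 0.000885), and Zfp281, Zfp318, Zfp532, Zfp592 and Zfp608 were lower in ST cells too. Zfp106, Zfp664 and Zfp828, which rose with tamoxifen in ST cells, were each lower in ST than in LT oil (-0.76, -0.51 and -0.86). Zfp277 fell with tamoxifen in ST cells and was higher in ST than in LT oil (0.62). These comparisons share the ST oil libraries, so a value that is high or low in those libraries moves both. By contrast Zfp831 was lower in ST than in LT oil (-0.91 ± 0.17) and lower again in ST tamoxifen.

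Between MPPs and LT cells in oil, 18 members passed (6.64%), where 14.8% of all genes did, with 12 higher in MPPs (all genes 7.76%) and 6 lower (all genes 7.01%). With values rescaled to reads outside the mitochondrial ribosomal RNAs the counts were 7 and 8. A fit of the MPP and LT oil libraries alone called 37, 27 higher and 10 lower, and leaving out LT oil library A left 11. Zfp658 measured 3.38, 9.6 and 4.88 normalised CPM in MPP oil, 1.15, 0.404 and 2.09 in LT oil and 1.81, 0.497 and 1.91 in ST oil (MPP minus LT 1.62 ± 0.42, adjusted p = 0.0066). Zfp238, now Zbtb18, a repressor, measured 46.3, 60.9 and 69 in MPP oil and 37, 33.8 and 41.9 in LT oil (0.62 ± 0.18, adjusted p = 0.0158). Zfp217 measured 109, 111 and 110 in MPP oil against 65.5, 65.8 and 79.5 (0.65 ± 0.14, adjusted p = 0.00101). Zfp438, Zfp367, Zfp422, Zfp760, Zfp706, Zfp719 and Zfp704 were the other larger rises, between 0.53 and 0.95. The 6 lower members all had fingers and neither KRAB nor SCAN by the pattern: Zfp612, Zfp711, Zfp462, Zfp467, Zfp111 and Zfp532. Zfp711, a partner of the demethylase Phf8, measured 3.44, 3.9 and 2.37 in LT oil and 0.135, 0.716 and 0.66 in MPP oil, where the lowest value stands for 0 reads. Zfp462, a chromatin factor of stem cells, measured 18.7, 14.1 and 9.89 in LT oil, 14.6, 16.4 and 18.3 in ST oil and 5, 5.87 and 6.2 in MPP oil, so MPPs alone lay apart (MPP minus LT -1.15 ± 0.31, adjusted p = 0.0102).

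Between MPPs and ST cells in oil, 47 members passed (17.3%), where 30.7% of all genes did, with 39 higher in MPPs (all genes 16.8%) and 8 lower (all genes 13.9%). With values rescaled to reads outside the mitochondrial ribosomal RNAs the counts were 29 and 13, and this scaling moved the median of all genes by -0.11. Zfp266 measured 170, 171 and 161 normalised CPM in MPP oil and 80.8, 82.7 and 91.3 in ST oil (0.97 ± 0.12, adjusted p = 1.2e-06), and was 152, 152 and 151 in LT oil. Zfp831 measured 153, 148 and 124 in MPP oil against 65.3, 62.8 and 69.3 in ST oil (1.09 ± 0.17, adjusted p = 2.49e-05). Zfp658, Zfp618, Zfp275, Zfp362, Zfp395, Zfp449, Zfp516 and Zfp709 were the other larger ones. The 8 lower members were Zfp462, Zfp692, Zfp688, Zfp111, Zfp330, Zfp277, Zfp940 and Zfp488. ST cells had the lowest oil mean for 105 of the 271 members (38.7%, against 34.9% of all genes) and MPPs the highest for 112 (41.3%, against 30.4%).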

How the data were processed

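RNA of sorted cells was amplified (Ovation RNA-Seq System V2) and sequenced, per the labels' protocols. The submitters' processing notes name Picard, cutadapt, RSEM 1.17, limma and the build NCBIM37 without their roles. The deposited table gives a normalised signal per gene and library. All of its values were whole reads plus 0.5 times 1 constant per library (tolerance 0.001 reads), the form CPM values take, and are called normalised CPM. How the authors set the constants, the strand setting and the filter is not stated; 120 genes had no symbol.

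Values were tested as log2(value + 1) with limma 3.58.1 (R 4.3.3, trend and robust settings) in 1 fit of 18 libraries with 12 residual degrees of freedom, and Benjamini-Hochberg adjusted over all genes. The ± values are standard errors. The design text calls the libraries biological replicates; whether 1 library is 1 mouse is not stated, and p-values measure only the spread between these libraries. edgeR 4.0.16 and DESeq2 1.42.0 were run on the recovered reads as alternatives. The fit was tested on simulated data.

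Named genes are, per comparison, up to 10 called members in each direction, the 3 smallest p where fewer than 3 passed in a tamoxifen comparison, members of the role lists, and KRAB machinery genes that passed, with Trim28 and Setdb1; Zfp143 is also shown for the motif. The members and lists were chosen with earlier results of these data known. Protein patterns were read from translated GENCODE M21 coding sequences in place of the planned RefSeq proteins, and promoters from RefSeq. Symbols were matched between builds and no coordinates were converted.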

Additional observations from a re-analysis of the deposited data

Results flagged for a closer look

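Zfp449, a member with a SCAN box, measured lower after tamoxifen in MPPs and higher in LT cells, but neither difference passed the threshold. In MPPs it measured 12.3, 11.3 and 11.2 normalised CPM in oil and 5.99, 6.24 and 4.42 in tamoxifen, a difference of -0.956 on the log2 scale (limma, adjusted p = 0.39). In LT cells it measured 5.94, 10.6 and 5.99 in oil and 17.1, 11.6 and 11 in tamoxifen, a difference of 0.757 (adjusted p = 0.20). Every tamoxifen library lay below the oil libraries in MPPs and above them in LT cells. The highest LT tamoxifen value, 17.1, came from library A, which stood apart from the others. Of all genes, 7.23% were lower without overlap in MPPs and 9.04% higher without overlap in LT cells. The share with both was not counted. The difference between the 2 effects was not tested.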

How the results depend on the processing

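No named member changed direction among its called values under any alternative run. The count of 14 members in ST cells ranged from 4 to 12 when 1 library was left out, and was 12 with edgeR, 15 with DESeq2, 12 with the replicate block, 10 with the ST libraries fitted alone and 18 without LT tamoxifen library A. In LT cells the count of 0 became 1 with quantile normalisation and 1 with rescaling outside the mitochondrial ribosomal RNAs (Zfp532 in both), 2 with DESeq2 (Zfp106 and Zfp532), and 0 to 2 when 1 library was left out (Zfp532 and Zfp467 without LT tamoxifen library B). The ST minus LT effect went from 0 members to 1 with the replicate block (Zfp488, adjusted p = 0.0395), 2 with DESeq2, and 0 to 1 when 1 library was left out. The ST minus MPP effect went from 0 to 1 with DESeq2 and to 2 when LT tamoxifen library A was dropped (Zfp106 and Zfp157). Between MPPs and LT cells in oil, 18 became 37 with only those libraries fitted, and 11 to 14 when 1 library was left out. The cause of these changes was not tested. Same-lettered or same-numbered libraries correlated at -0.061 to 0.216 between oil and tamoxifen (deviations from group means). Same-lettered LT and ST libraries correlated at 0.054 to 0.149, and differently lettered ones at -0.120 to 0.050. Each MPP oil library correlated best with its own number in tamoxifen, and each LT library with its own letter in ST cells. That is only a hint of pairing from the data, and the main fit did not pair the samples by label. The filter at 1 normalised CPM in 3 libraries removed no gene. The lowest members rest on a few reads per library, where a difference may not be detectable.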
